A study of Caenorhabditis elegans with 66 samples.

Results

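The piRNAs 21ur-1258, 21ur-4766 and 21ur-5030 of Caenorhabditis elegans are described across all genotypes and ages of a small RNA sequencing study. They are 3 of the 17114 piRNAs in the deposited count table, and all 3 passed the filter on low counts, which kept 8512. They were chosen by their levels in adults, because they were among the most abundant piRNAs that differed between snpc-1.3 mutants and wild type there. 21ur-1258 was lower in the mutant, and 21ur-4766 and 21ur-5030 were higher. The values of snpc-1.3 against wild type at 72 h in set A therefore chose them, and those values are given without a test.

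piRNAs of the worm are short RNAs that each come from a small gene of their own, mostly in clusters on a single chromosome. They are bound by the Piwi Argonaute PRG-1 and find their targets by base pairing, in which the seed near the 5′ end has a leading part. SNPC proteins are related to subunits of the complex that acts at small nuclear RNA genes, and SNPC-1.3 is known for its role in the transcription of piRNAs of the male germline. The hermaphrodite makes sperm as a larva and oocytes as an adult.

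Small RNA came from whole animals, either gravid adults (72 h) or larvae of the L4 stage (48 h). The mutants were snpc-1.3(-) and snpc-1.2(-) in set A, and snpc-1.2(-); snpc-1.3(-), prg-1(-), mut-16(-) and hrde-1(-) in set B. The labels name no alleles. Wild type (N2) was present in sets A, B and C, and a mutant was set against the wild type that shared its set and its age. MUT-16 is needed for the amplification of secondary small RNAs, and HRDE-1 is a nuclear Argonaute. Each of the 18 groups had 3 libraries, 54 in all, and a further 12 samples (set C mutants) were not analysed here. Replicate 3 of set B wild type at 72 h is labelled as resequenced. The table counts piRNAs alone, so the mutated protein-coding genes and markers of tissue were not measured. Nothing in the labels says that replicates came from separate cultures, so p-values measure the spread between these libraries, which may be technical.

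The sequences are shown because they identify the molecules counted and show that the 3 share no seed. Each is given 5′ to 3′ as the deposited table writes it, with T for U, and capitals mark the seed, bases 2 to 8.
21ur-1258: tAGACTTGagttagaacggtt
21ur-4766: tTGAAATGaataaatacaggg
21ur-5030: tAACAGAAgacttgaaaaagg

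All 3 sequences are 21 bases long and begin with T, as do 97.7% of the 13211 sequences in the deposited table. No other piRNA of that table has an identical sequence (0 for each of the 3). The seed of 21ur-1258 is shared with 1 other piRNA, 21ur-12467, that of 21ur-4766 with 21ur-12919 and 21ur-9789, and that of 21ur-5030 with 21ur-7134. Of the 21 bases, 8 are G or C in 21ur-1258, 6 in 21ur-4766 and 7 in 21ur-5030.

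All 3 lie on chromosome IV (WBcel235). 21ur-1258 (WBGene00046264) is at IV:14392623-14392643 on the plus strand and overlaps no other annotated gene. 21ur-5030 (WBGene00049254) is at IV:15228810-15228830 on the minus strand, inside pkd-2 on the same strand but outside its exons. pkd-2 encodes a polycystin channel of sensory neurons. 21ur-4766 (WBGene00046523) is at IV:15281916-15281936 on the plus strand, and is 53086 bases from 21ur-5030 and 889293 from 21ur-1258. A second annotated piRNA, 21ur-1988, starts 1 base before 21ur-4766 on the same strand and shares 20 bases with it, so reads could be split between these. 21ur-1988 had 3 counts over the 54 libraries, against 789 for 21ur-4766. How reads over both were assigned is not given in the sources used here, so the counts of 21ur-4766 are uncertain to that extent.

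Levels are in CPM, the piRNA's counts scaled to a common total of piRNA counts (1e6 in each library), so a change is a change in the share of the piRNA pool. In whole animals, fewer cells that make a piRNA and less of it per cell cannot be told apart. The piRNA total ranged from 3167 in a prg-1 library to 2276260 in a mut-16 library. Total sequencing depth was not available, so piRNA totals and plain counts also vary with it. Mean totals were 105% of wild type in snpc-1.3 at 72 h and 68.7% at 48 h, and 25.7% and 64.2% in snpc-1.2. They were 3.52% and 2.83% in the mutant lacking both snpc genes, and 1.09% and 0.779% in prg-1. In these last groups 1 count is worth many CPM, and the values of low piRNAs are limited by that. One wild-type library, set C replicate 3 at 72 h, stood apart from its replicates, with 9912 piRNA counts and Spearman correlations of 0.252 and 0.322 with the other two, against 0.883 between those.

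**Figure D1:**
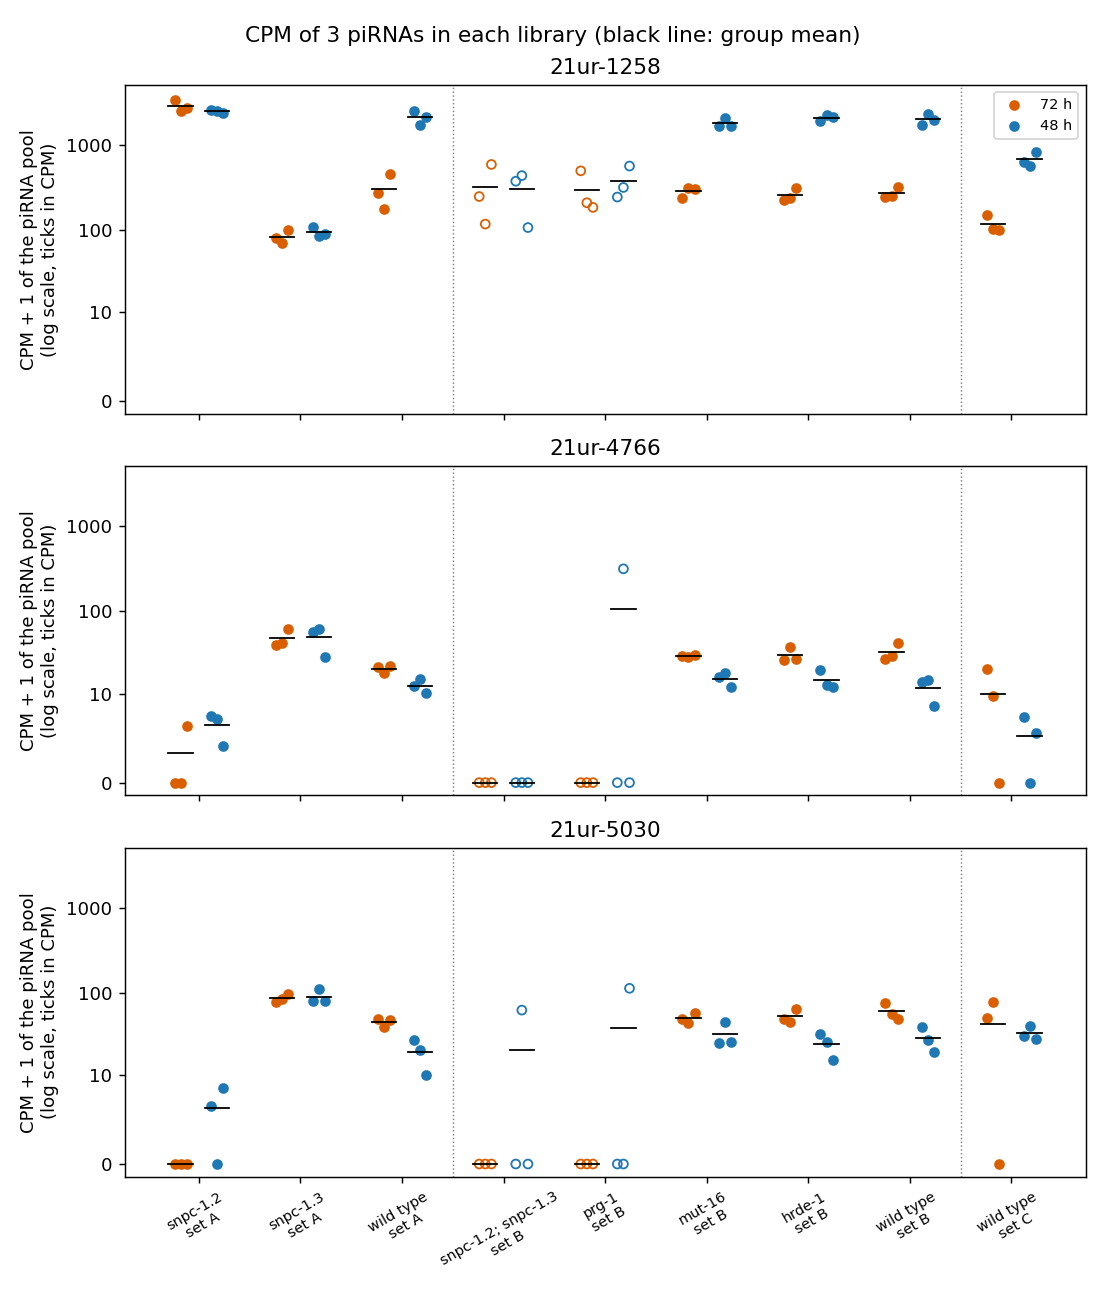
CPM of 21ur-1258, 21ur-4766 and 21ur-5030 in each library, on a log scale of CPM + 1 with ticks in CPM. Each point is a library, orange at 72 h and blue at 48 h, black lines are group means, dotted lines separate the sets, and open points mark the groups with few piRNA counts (the mutant lacking both snpc genes, and prg-1). By group mean 21ur-1258 was lowest in snpc-1.3 at both ages and highest in snpc-1.2, while 21ur-4766 and 21ur-5030 were higher in snpc-1.3 than in wild type and had at most 4 counts in any snpc-1.2 library.

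In adults without snpc-1.3, the comparison that chose the 3 piRNAs, 21ur-1258 had 60, 51 and 81 counts in snpc-1.3 at 72 h, against 168, 168 and 287 in wild type. As levels these were 79.3, 69.8 and 100.1 CPM in snpc-1.3, against 275, 178 and 453 CPM in wild type. The groups did not overlap, and the mean level in snpc-1.3 was 27.5% of the wild-type mean. 21ur-4766 had 39.7, 42.4 and 61.8 CPM in snpc-1.3 and 21.3, 18.1 and 22.1 CPM in wild type, a ratio of means of 2.34. 21ur-5030 had 76.7, 83.5 and 96.4 CPM in snpc-1.3 and 49.1, 39.3 and 47.4 CPM in wild type, a ratio of 1.89. Every snpc-1.3 library of both was above every wild-type library. The fitted log2 fold changes were -1.85 (standard error, SE, 0.28), 1.24 (SE 0.40) and 0.93 (SE 0.35). A piRNA is called where its edgeR p-value, adjusted over all piRNAs tested, is below 0.05. Among all piRNAs 11.4% were called lower and 0.0587% higher in this comparison (9.26% and 0.129% with TMM scaling), and nothing is read from the place of the 3 piRNAs among these.

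The rule behind the choice took piRNAs that were called and changed at least 2-fold with TMM scaling (edgeR's factors from trimmed means) and whose groups did not overlap, in order of the mean CPM in the higher group. It was met by 8 piRNAs in the higher direction, of which 21ur-5030 and 21ur-4766 were the most abundant. Next outside were 21ur-6939, with a mean of 44.2 CPM in snpc-1.3 and 17.6 CPM in wild type, and 21ur-1668, with 34.7 and 15.5 CPM. In the lower direction 759 piRNAs met the rule. 21ur-1258 came in that order after 21ur-6881 (42.1 CPM in snpc-1.3 and 469.9 CPM in wild type) and before 21ur-6053 (59.9 and 276 CPM).

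In larvae, libraries that the choice did not use, the same 3 piRNAs differed from wild type in the same directions. 21ur-1258 had 81, 58 and 69 counts in snpc-1.3 at 48 h, against 2587, 1995 and 2109 in wild type. These were 108, 85.7 and 88.5 CPM in snpc-1.3, against 2461, 1707 and 2128 CPM in wild type. The mean level was 4.49% of wild type, and by count it was 3.11%. Ranked by level among 17114 piRNAs, 21ur-1258 had rank 1554 in snpc-1.3 larvae and rank 29 in wild-type larvae of set A. It fell by 4.48 on the log2 scale (edgeR adjusted p 1.6e-24, SE 0.30).

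21ur-4766 and 21ur-5030 rose in the same larvae. 21ur-4766 had 43, 42 and 22 counts in snpc-1.3, against 13, 18 and 10 in wild type. Its levels were 57.5, 62.0 and 28.2 CPM in snpc-1.3 and 12.4, 15.4 and 10.1 CPM in wild type. The groups did not overlap, and the log2 fold change was 1.95 (edgeR adjusted p 1.7e-05, SE 0.41). 21ur-5030 had 59, 74 and 62 counts in snpc-1.3, against 29, 24 and 10 in wild type. Its levels were 78.9, 109 and 79.5 CPM in snpc-1.3 and 27.6, 20.5 and 10.1 CPM in wild type. Here too the groups stood apart, with a log2 fold change of 2.19 (edgeR adjusted p 1.3e-07, SE 0.36). As plain counts, with a lower piRNA total in snpc-1.3, the means were 261% of wild type for 21ur-4766 and 310% for 21ur-5030. Plain counts also depend on sequencing depth, which was not known.

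All 3 were called at 48 h, in a comparison in which 73.2% of all piRNAs tested were called, 30.8% higher and 42.4% lower (77.3%, 38.6% and 38.7% with TMM scaling). A call alone did not set them apart. The median log2 fold change over all piRNAs (shrunken values of the fit) was -0.19, and 0.31 with TMM scaling. Relative to that median 21ur-1258 changed by -4.29, 21ur-4766 by 2.14 and 21ur-5030 by 2.38, and these were -4.27, 2.17 and 2.42 with TMM scaling. How many piRNAs changed as far in either direction was not counted, so these offsets do not set the 3 apart.

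Between the ages the snpc-1.3 libraries differed little for any of the 3. 21ur-1258 averaged 83.1 ± 15.5 CPM at 72 h and 94.2 ± 12.4 CPM at 48 h (SD, n = 3 each). 21ur-4766 averaged 48.0 ± 12.1 CPM at 72 h and 49.3 ± 18.4 CPM at 48 h. 21ur-5030 averaged 85.5 ± 10.0 CPM at 72 h and 89.2 ± 17.4 CPM at 48 h. The 2 ages overlapped for each piRNA. The 72 h libraries entered the choice, so this is described without a test. Between the ages (72 h less 48 h) this fold change of snpc-1.3 over wild type differed by 2.62 (SE 0.39) for 21ur-1258, -0.71 (SE 0.58) for 21ur-4766 and -1.26 (SE 0.50) for 21ur-5030 on the log2 scale, also without a test.

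In wild type all 3 changed with age. The test used sets B and C, since the adult wild-type libraries of set A entered the choice. 21ur-1258 had 243, 252 and 317 CPM at 72 h in set B, against 1685, 2305 and 1969 CPM at 48 h. In set C it had 149, 104 and 101 CPM at 72 h, against 634, 562 and 825 CPM at 48 h. The 101 CPM came from 1 count in the library that stood apart. The ages stood apart in both sets, although the level at 48 h was lower in set C than in set B. 21ur-1258 fell by 2.64 with age on the log2 scale (edgeR adjusted p 1.1e-19, SE 0.21).

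21ur-4766 had 27.1, 29.7 and 42.5 CPM at 72 h in set B, against 13.9, 15.0 and 6.93 CPM at 48 h. In set C it was near the limit of the counts, with 15, 3 and 0 counts at 72 h, against 4, 0 and 1 at 48 h. The ages overlapped in set C and not in set B. It rose by 1.92 on the log2 scale (edgeR adjusted p 5.4e-05, SE 0.43), and by 1.47 in set B and 2.38 in set C.

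21ur-5030 had 75.7, 55.2 and 49.1 CPM at 72 h in set B, against 39.4, 27.5 and 19.6 CPM at 48 h. In set C it had 37, 25 and 0 counts at 72 h, the 0 in the library that stood apart, against 25, 16 and 10 at 48 h. It rose by 0.97 on the log2 scale (edgeR adjusted p 0.0016, SE 0.28). Set B alone gave 1.04 and set C alone gave 0.89, which was not called (edgeR adjusted p 0.085). With the library of set C that stood apart left out, the 3 values were -2.63, 1.93 and 0.99.

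All 3 were called between the ages of wild type, where 72.4% of piRNAs tested were called, 29.8% higher and 42.6% lower at 72 h. Relative to the median of all piRNAs (-0.29, and 0.06 with TMM scaling), 21ur-1258 changed by -2.35, 21ur-4766 by 2.22 and 21ur-5030 by 1.26. Set A, described only, had log2 changes of -2.80 (SE 0.27) for 21ur-1258, 0.68 (SE 0.44) for 21ur-4766 and 1.21 (SE 0.38) for 21ur-5030. For each of the 3 the direction with age in wild type (sets B and C) was that of snpc-1.3 larvae against wild-type larvae. Many piRNAs near them on the chromosome did the same, and the share over all piRNAs was not counted. This does not set the 3 apart.

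**Figure D2:**
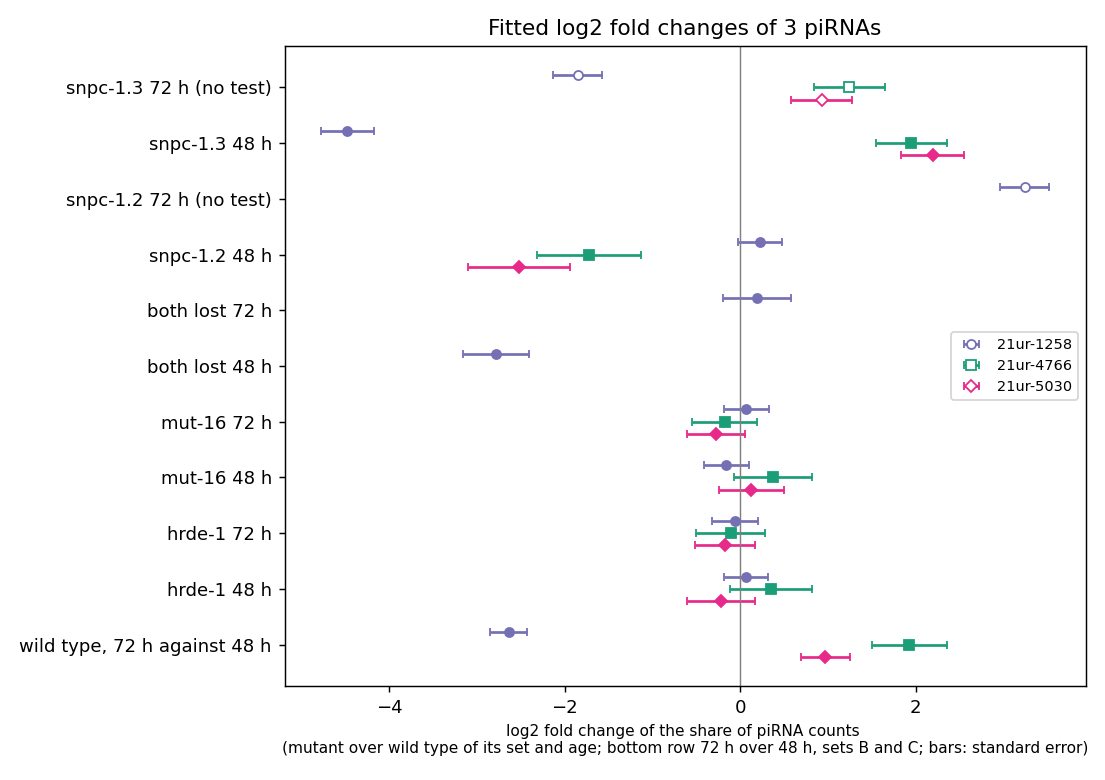
Fitted log2 fold changes of the share of piRNA counts, mutant over the wild type that shared its set and age, with the wild-type change of 72 h over 48 h in sets B and C in the bottom row. Bars are standard errors from 3 libraries a group, and open points mark adults of set A, given without a test because their wild-type libraries entered the choice of the piRNAs. prg-1 is not drawn, nor are 21ur-4766 and 21ur-5030 where the mutant had at most 1 count in all. 21ur-1258 lies opposite to the other 2 in both snpc-1.3 rows and in the age row.

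In snpc-1.2 larvae 21ur-4766 and 21ur-5030 fell, and 21ur-1258 did not pass the test. At 48 h 21ur-1258 had 2034, 1643 and 1393 counts in snpc-1.2, against 2587, 1995 and 2109 in wild type. Its levels were 2555, 2464 and 2332 CPM in snpc-1.2, against 2461, 1707 and 2128 CPM in wild type, and the groups overlapped. It was not called, at a log2 fold change of 0.22 (edgeR adjusted p 0.53, SE 0.25, 95% interval -0.27 to 0.72). With TMM scaling the value was -0.77 (edgeR adjusted p 0.042). That scaling moved the median of all piRNAs to -0.83, against 0.14 with the sum of piRNA counts, and 21ur-1258 was 0.06 and 0.09 above those medians.

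21ur-4766 and 21ur-5030 fell in the same snpc-1.2 larvae. 21ur-4766 had 4, 3 and 1 counts in snpc-1.2, against 13, 18 and 10 in wild type, a log2 fold change of -1.72 (edgeR adjusted p 0.019, SE 0.59), or -2.70 with TMM scaling. The groups did not overlap. The call was lost without snpc-1.2 replicate 3 (-1.41, edgeR adjusted p 0.10) or without wild type replicate 2 (-1.54, edgeR adjusted p 0.076). 21ur-5030 had 3, 0 and 4 counts in snpc-1.2, against 29, 24 and 10 in wild type, and its log2 fold change was -2.52 (edgeR adjusted p 0.00023, SE 0.58). Of all piRNAs tested 29.2% were called in this comparison, 3.1% higher and 26.1% lower. With TMM scaling 43.6% were called, 0.0587% higher and 43.5% lower.

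The snpc-1.2 adults were set against the same wild-type libraries that entered the choice of the 3 piRNAs, so their values are described without a test. In these adults 21ur-1258 was among the most abundant piRNAs, with rank 22 of 17114, against rank 704 in wild-type adults of set A. It had 518, 330 and 737 counts in snpc-1.2 at 72 h, against 168, 168 and 287 in wild type, with lower snpc-1.2 piRNA totals. Its levels were 3353, 2484 and 2678 CPM in snpc-1.2, against 275, 178 and 453 CPM in wild type. Every snpc-1.2 library was above every wild-type library, and the mean level was 9.39 times that of wild type. By count the ratio of means was 254%, which also depends on sequencing depth. The log2 fold change of 21ur-1258 was 3.24 (SE 0.28).

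21ur-4766 had 0, 0 and 1 counts in snpc-1.2 adults, against 13, 17 and 14 in wild type. The summed counts per total were 11.3-fold lower in snpc-1.2 (95% exact interval 1.93 to 457, counting error only). 21ur-5030 had 0 counts in all 3 snpc-1.2 libraries, against 30, 37 and 30 in wild type. It was at least 8.32-fold lower, set against a floor of 3 counts over the group, or 5.33 CPM.

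Over all piRNAs tested 80.5% were called in snpc-1.2 adults, 49.9% higher and 30.6% lower. With TMM scaling 66.2% were called, 23% higher and 43.1% lower, and nothing is read from the place of the 3 piRNAs among these. The median over all piRNAs was 1.51 here and -0.42 with TMM scaling, under which the log2 fold change of 21ur-1258 was 1.27 (SE 0.33). Relative to the 2 medians 21ur-1258 was 1.73 and 1.69 higher.

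The log2 fold change of 21ur-1258 in snpc-1.2 at 72 h less that at 48 h was 3.01 (SE 0.37). This difference uses those libraries too and is given without a test. Over all piRNAs this difference was called for 40.5%, 37.1% higher and 3.42% lower (22.1% and 8.85% with TMM scaling). Within snpc-1.2, a comparison added after the data were seen, 21ur-1258 averaged 2839 ± 456 CPM at 72 h and 2450.3 ± 113 CPM at 48 h (SD, n = 3 each). The groups overlapped, and the log2 change was 0.21 (edgeR adjusted p 0.75, SE 0.25, 95% interval -0.29 to 0.71). Of all piRNAs 11.0% were called between the ages of snpc-1.2, 8.98% higher and 2.02% lower at 72 h (7.93% and 14.8% with TMM scaling).

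In the mutant lacking both snpc genes few counts were left. 21ur-1258 had 11, 7 and 3 counts at 48 h, against 1581, 1841 and 1704 in wild type. Its levels were 374, 435 and 107 CPM in the mutant, against 1685, 2305 and 1969 CPM in wild type. The groups stood apart, and the share of 21ur-1258 fell by 2.78 on the log2 scale (edgeR adjusted p 1.5e-09, SE 0.37), among 32.8% of piRNAs called, 12.5% higher and 20.4% lower (10.6% and 47.6% with TMM scaling). With TMM scaling the value was -4.16, and the median of all piRNAs was -3.93 with that scaling, against -3.01 with the sum of piRNA counts. Relative to the median 21ur-1258 was at 0.23 with the sum of counts and at -0.23 with TMM scaling. These medians are of shrunken values, which depend on the fit's prior where counts are few, so nothing is read from the offsets.

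At 72 h 21ur-1258 had 6, 4 and 16 counts in this mutant, against 170, 246 and 239 in wild type. Its levels were 247, 117 and 588 CPM, against 243, 252 and 317 CPM, and the groups overlapped. As a count it was 3.97% of wild type, beside 3.52% for the piRNA total, and its share did not pass the test (log2 0.19, edgeR adjusted p 0.74, SE 0.39, 95% interval -0.58 to 0.95). The direction turned with TMM scaling (-1.83, edgeR adjusted p 0.00022), with DESeq2 (-0.54) and without mutant replicate 3 (-0.64). Called piRNAs made up 33.6%, 17.2% higher and 16.4% lower, and with TMM scaling 7.88% were higher and 39.7% lower. The effect of losing both genes on 21ur-1258 differed between the ages by 2.97 (edgeR adjusted p 0.00013, SE 0.57), among 7.44% of piRNAs called, 6.65% higher and 0.787% lower (2.53% and 0.963% with TMM scaling).

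21ur-4766 had no count in the 6 libraries of this mutant. A floor of 3 counts over the mutant group amounted to 35.0 CPM at 72 h and 40.7 CPM at 48 h, above the summed wild-type level of 32.9 CPM at 72 h and 11.9 CPM at 48 h. A difference was not detectable at this depth. 21ur-5030 had 0, 1 and 0 counts at 48 h, where wild type was under the floor as well. At 72 h 21ur-5030 had 0 counts in the mutant, against 53, 54 and 37 in wild type, and was at least 1.69-fold lower (edgeR adjusted p 0.014). This call was lost without mutant replicate 2 or 3 (edgeR adjusted p 0.076 and 0.055).

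In prg-1, where the bound piRNAs are lost as a class, 21ur-1258 kept single counts. It had 2, 1 and 5 counts in prg-1 at 48 h, against 1581, 1841 and 1704 in wild type. Its share fell by 2.34 on the log2 scale (edgeR adjusted p 0.00021, SE 0.50; with TMM scaling -3.86), among 10.1% of piRNAs called, 4.88% higher and 5.25% lower (28.4%, 4.55% and 23.8% with TMM scaling). The median over all piRNAs in prg-1 was -5.21 at 48 h and -4.15 at 72 h (-5.11 and -4.72 with TMM scaling). These medians are of shrunken values, which depend on the fit's prior at so few counts, so nothing is read from them. At 72 h 21ur-1258 had 3, 2 and 2 counts in prg-1, against 170, 246 and 239 in wild type. Its share was not called (log2 -0.02, edgeR adjusted p 1.00, SE 0.61, 95% interval -1.22 to 1.18), where 12.1% were, 5.26% higher and 6.86% lower (4.78% and 20.2% with TMM scaling). TMM scaling gave -1.59 (edgeR adjusted p 0.045) and DESeq2 gave 0.74. The difference of the prg-1 effect between the ages was 2.32 and was not called (edgeR adjusted p 0.41, SE 0.88), among 0.2% called. 21ur-4766 and 21ur-5030 had 0 counts in prg-1 at 72 h and 1 count each at 48 h, and wild type was under the floor as well.

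mut-16 and hrde-1 gave no call for any of the 3 at either age (0 of 12). At 72 h levels of 21ur-1258 were 235.5, 312 and 305 CPM in mut-16 and 224, 241 and 314 CPM in hrde-1, against 243, 252 and 317 CPM in wild type. At 48 h they were 1636, 2039.5 and 1666 CPM in mut-16 and 1917, 2212 and 2107 CPM in hrde-1, against 1685, 2305 and 1969 CPM in wild type. By count 21ur-1258 was at 246% of wild type in mut-16 adults, where the piRNA total was at 236%. All these groups overlapped wild type, and so did those of 21ur-4766 and 21ur-5030. The log2 fold changes of 21ur-1258 lay between -0.16 and 0.07, those of 21ur-4766 between -0.18 and 0.37 and those of 21ur-5030 between -0.27 and 0.13. The widest 95% intervals were those of 21ur-4766 at 48 h, -0.51 to 1.25 in mut-16 and -0.56 to 1.26 in hrde-1, and differences within these intervals were not detectable. Called piRNAs in mut-16 adults were 7.34% of those tested, with 0.446% higher and 6.9% lower. In mut-16 larvae they were 3.9%, with 0.352% higher and 3.55% lower. In hrde-1 they were 1.33% at 72 h (0.411% and 0.916%) and 0.822% at 48 h. In hrde-1 at 48 h 0.317% were higher and 0.505% lower, and with TMM scaling 0.223% and 0.587%. For the difference between ages edgeR called 0 piRNAs in either mutant, with 315 and 246 at an unadjusted p below 0.05.

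Ordered by mean level over the groups, 21ur-1258 ran from 2839 CPM in snpc-1.2 adults to 83.1 CPM in snpc-1.3 adults. The 5 groups after the first, between 2450.3 and 1781 CPM, were the 48 h groups of snpc-1.2, wild type, hrde-1 and mut-16 in sets A and B, and neighbours in this order overlapped. Set C wild type at 48 h (674 CPM) lay below them without overlap. Next came the groups of few counts and the other 72 h groups of sets A and B, between 374 and 259 CPM and overlapping from each to the next. Set C wild type at 72 h (118 CPM) and the snpc-1.3 groups were last and overlapped in the same way.

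21ur-5030 was highest in snpc-1.3 (85.5 CPM at 72 h and 89.2 CPM at 48 h), followed by the 72 h groups of set B wild type, hrde-1 and mut-16 (60.0, 53.1 and 49.8 CPM). The snpc-1.3 groups overlapped each other and lay above the next group in this order without overlap. A library of set C wild type at 72 h (78.5 CPM) lay within their range, and a prg-1 library at 48 h had 113 CPM from 1 count. 21ur-4766 had the same leading groups once prg-1 at 48 h, with its 1 count, is set aside, with 48.0 CPM at 72 h and 49.3 CPM at 48 h in snpc-1.3, and 33.1 CPM in set B wild type, 30.2 CPM in hrde-1 and 29.2 CPM in mut-16 at 72 h. In snpc-1.2 21ur-5030 was at 0 CPM at 72 h and 3.49 CPM at 48 h, the lowest of the groups outside prg-1 and the mutant lacking both genes. For 21ur-4766 the lowest of these groups were snpc-1.2 at 72 h (1.21 CPM), set C wild type at 48 h (2.55 CPM) and snpc-1.2 at 48 h (3.73 CPM), which overlapped.

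Over the 16 groups other than prg-1, the log2(CPM + 1) levels of 21ur-4766 and 21ur-5030 had a Pearson r of 0.81 and a Spearman rho of 0.91. 21ur-1258 had an r of -0.34 with 21ur-4766 (rho -0.72) and -0.50 with 21ur-5030 (rho -0.86). These are descriptions with no test, since the groups share sets, depth and the wild-type libraries.

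The piRNAs most like each of the 3 in this measure, among 8511, lay on the same chromosome. That chromosome holds most piRNA genes of the worm, so this does not set them apart. For 21ur-1258 they were 21ur-3898, 21ur-5144 and 21ur-6480 (r 0.996, 0.993 and 0.993), the last of them 871 bases away on the same strand. For 21ur-4766 they were 21ur-5750, 21ur-6830 and 21ur-2883 (r 0.975, 0.975 and 0.971), and for 21ur-5030 they were 21ur-7071, 21ur-456 and 21ur-1526 (r 0.988, 0.986 and 0.985). 21ur-6480 averaged 24.2 CPM in snpc-1.3 larvae and 615 CPM in wild-type larvae, and 604 CPM in snpc-1.2 adults and 64.2 CPM in wild-type adults. 21ur-7071 had 64.1 CPM in snpc-1.3 larvae and 17.6 CPM in wild-type larvae, and was at 0 counts in snpc-1.2 adults, against 48.4 CPM in wild-type adults. Both were picked for their likeness over groups that include these, so such values follow from how they were picked.

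**Figure D3:**
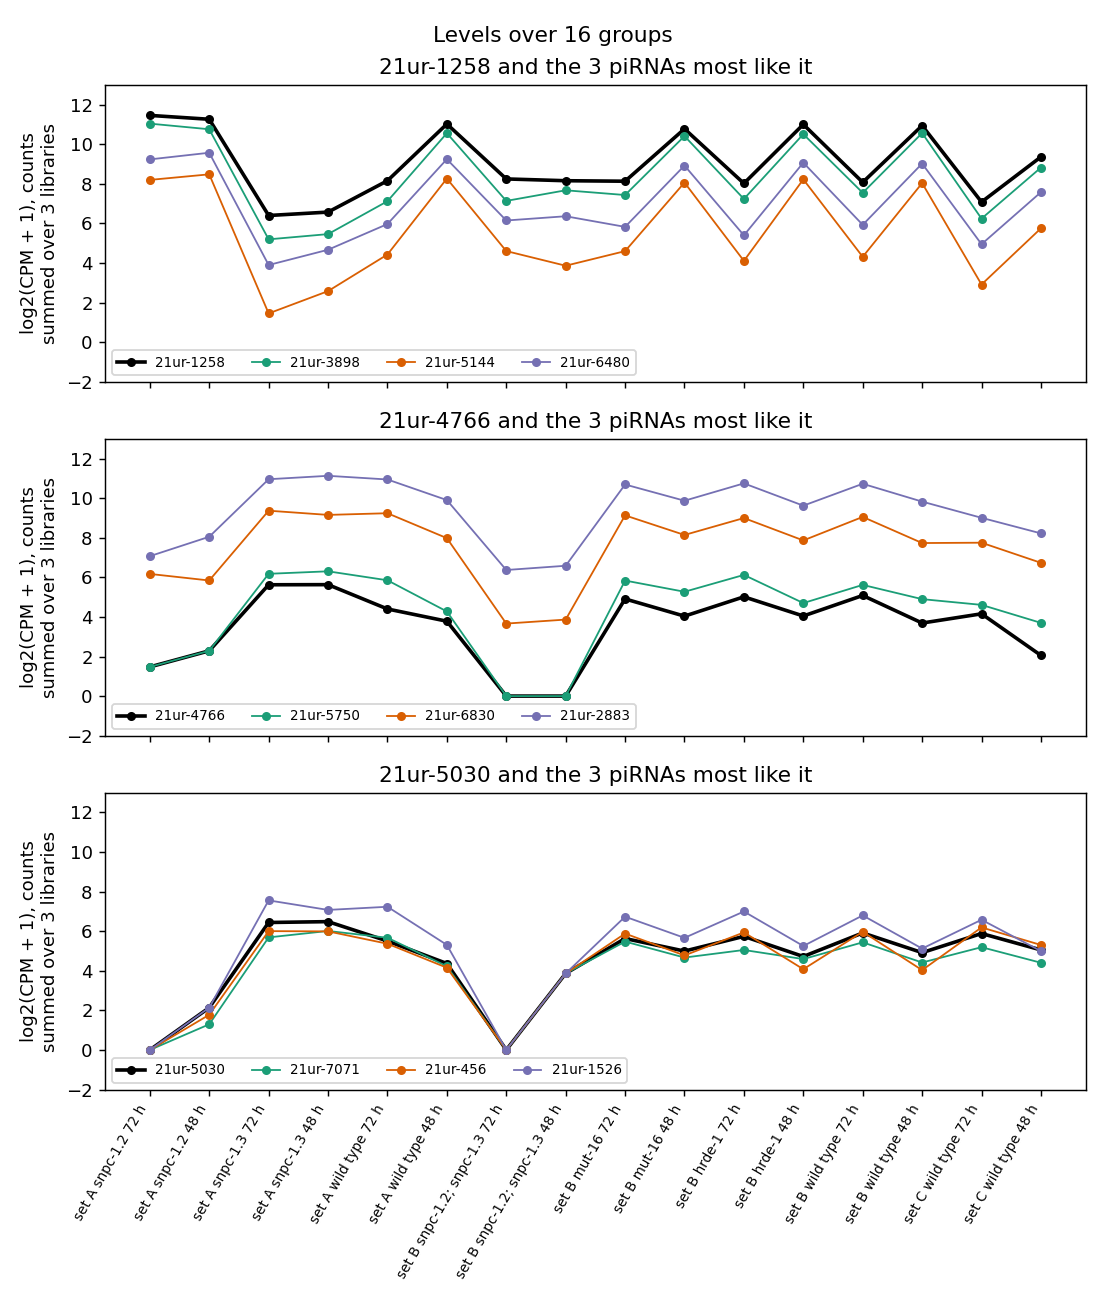
Levels of each piRNA (black) and of the 3 piRNAs most like it over the 16 groups other than prg-1, as log2(CPM + 1) of counts summed over 3 libraries. The profile of 21ur-1258 dips in both snpc-1.3 groups, where those of 21ur-4766 and 21ur-5030 are at their highest. The 72 h snpc-1.3 group entered the choice of the 3 piRNAs.

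piRNAs of both directions lay around each of the 3. Within 10 kb of 21ur-1258 there were 94 other piRNAs, of which 43 were tested, and in snpc-1.3 larvae 21 were called higher and 14 lower than in wild type. Around 21ur-4766 16 of 41 were higher and 15 lower, and around 21ur-5030 14 of 37 were higher and 14 lower. In snpc-1.2 adults the calls were 14 higher and 22 lower around 21ur-1258, 15 and 22 around 21ur-4766, and 15 and 15 around 21ur-5030. Over all piRNAs tested the shares were 30.8% higher and 42.4% lower in snpc-1.3 larvae, and 49.9% higher and 30.6% lower in snpc-1.2 adults. Within 25 kb the calls in snpc-1.3 larvae were 47 higher and 47 lower of 119 around 21ur-1258, 41 and 45 of 108 around 21ur-4766, and 39 and 44 of 98 around 21ur-5030. In snpc-1.2 adults they were 44 and 51, 42 and 46, and 45 and 36.

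The nearest kept piRNAs called in snpc-1.3 larvae changed in the same direction beside 21ur-1258 and 21ur-4766, and in the opposite direction beside 21ur-5030. 21ur-6846, on the same strand as 21ur-5030 and with its first base (5′ end) 70 bases away, had 0 counts in the snpc-1.3 larvae and a mean of 34.0 counts in wild-type larvae, and it fell (edgeR adjusted p 6.9e-10) where 21ur-5030 rose. In snpc-1.2 adults 21ur-6846 had 14 counts in all, against 3 in wild type with a larger piRNA total, and it rose (edgeR adjusted p 2.4e-05), while 21ur-5030 had 0 counts there. 21ur-4910, with its first base at -131 bases from that of 21ur-4766 and on the other strand, had 34.4 ± 10.1 CPM in snpc-1.3 larvae and 8.66 ± 3.42 CPM in wild-type larvae, and it rose as 21ur-4766 did (log2 1.99, edgeR adjusted p 7.6e-05, SE 0.46).

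Beside 21ur-1258, 21ur-7716 has its first base 768 bases away on the other strand. It had 3 counts in all in snpc-1.3 larvae, against 42 in wild type, and fell (edgeR adjusted p 0.00039). It had 8 in snpc-1.2 adults, against 1 in wild type, and rose (edgeR adjusted p 0.00040). The next piRNA on the other side, novel_21ur-1000 at -1176 bases, had 0 counts in snpc-1.3 larvae, against 87 in wild type, and fell (edgeR adjusted p 2.0e-09). It had 10 in snpc-1.2 adults, against 3 in wild type, and rose (edgeR adjusted p 0.00042). The nearest on the remaining sides, 21ur-6147 by 21ur-4766 and 21ur-11926 by 21ur-5030, were not called in snpc-1.3 larvae (edgeR adjusted p 0.20 and 0.081).

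**Figure D4:**
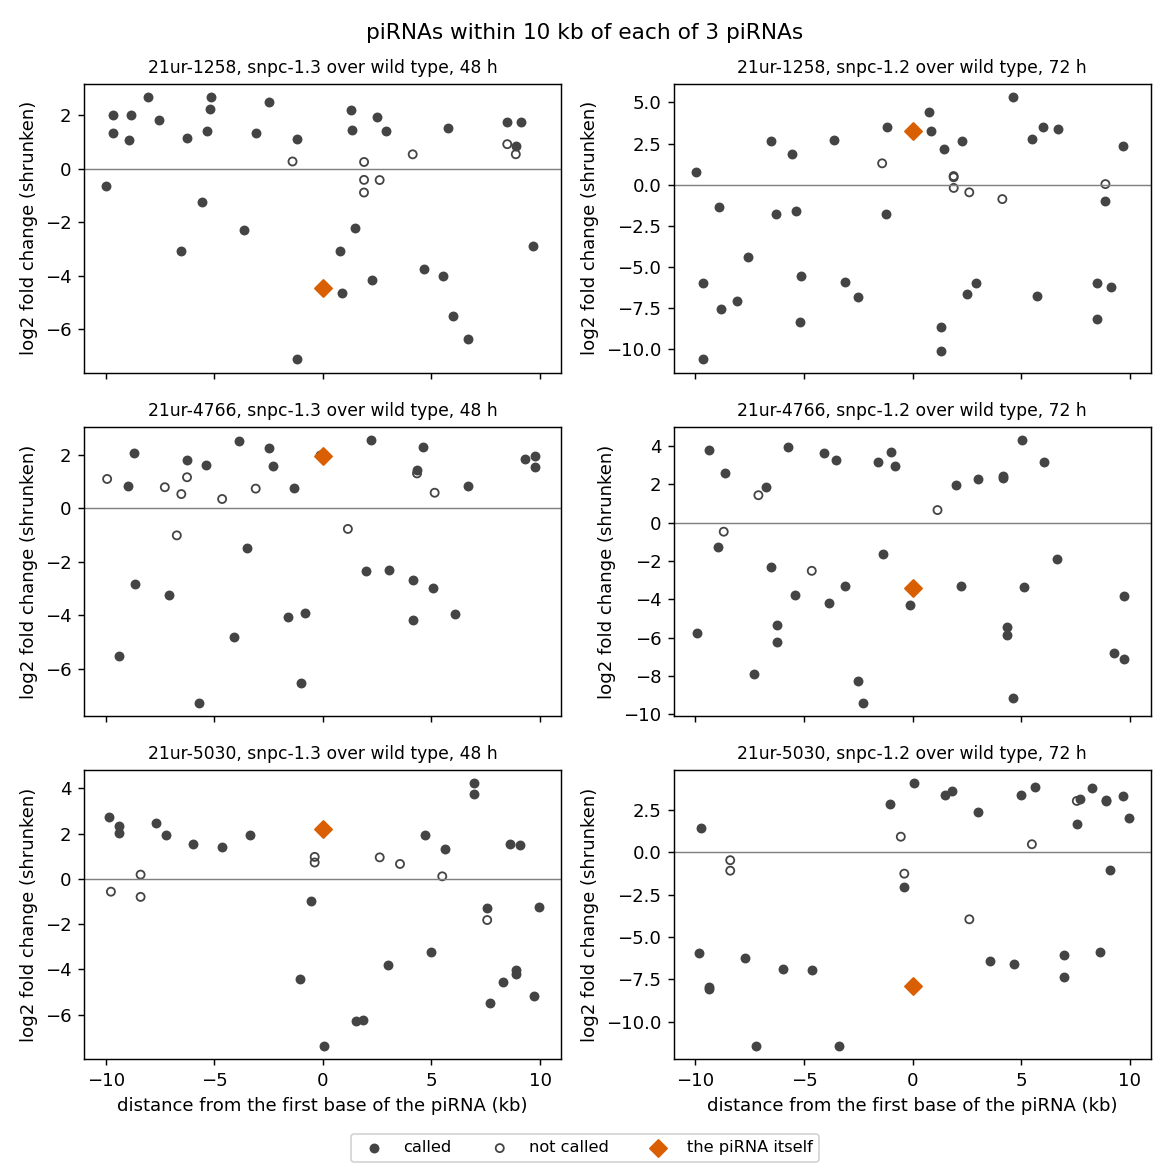
Log2 fold changes (shrunken values of the fit) of the tested piRNAs within 10 kb of 21ur-1258, 21ur-4766 and 21ur-5030, against the distance between first bases (kb). Filled points were called, open points were not, and the diamond is the piRNA itself; where a group had no counts the value depends on the fit's prior and shows the direction only. Higher and lower piRNAs lie among each other on both sides of all 3.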

How the data were processed

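Small RNA was sequenced from whole animals after RNA 5′ polyphosphatase treatment, per the labels' protocols. The submitters' processing notes name Trimmomatic 0.39, Bowtie 1.1.1, HTSeq, edgeR and the build WBcel235, with no order. The deposited counts are whole numbers per piRNA with a different total in each library, and were taken as raw counts. Of the columns, 12 match no sample of the series and were not used. A second deposited table is named by the authors as batch-corrected log2 CPM, and its scaling and correction are not given in the sources used here. It gave the sequences and entered 1 alternative test, and all 11460 of its piRNAs named in the annotation had the annotated position.

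Counts of 54 libraries were fitted together in edgeR 4.0.16 (R 4.3.3), each of the 18 groups with its own mean, and tested by quasi-likelihood. Libraries were scaled by the sum of piRNA counts, without TMM factors. This was planned because earlier work on these data found many false calls with TMM factors in libraries with few piRNA counts. filterByExpr (minimum count 10, minimum total 15) kept 8512 piRNAs. p-values were adjusted over all of these (Benjamini-Hochberg) and called below 0.05. Log2 fold changes of named piRNAs are not shrunken, and each SE is the size divided by the square root of F. Medians over all piRNAs are of shrunken values, and the unshrunken values of the 3 piRNAs were set against them. Where both groups were at or under 3 counts' worth, no fold or test is given. The fits were tested on simulated data.

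Alternatives were TMM, DESeq2 1.42.0, no filter, each set alone, the replicate number as a block, limma 3.58.1 on the deposited log2 values (13211 piRNAs, adjusted over those), and leaving out each library. For the last, the filter and the trended dispersion were held from the fit of all libraries. By the rule that every same-numbered pair correlates above 0.1, the numbers paired the samples for hrde-1 at 48 h (0.122 to 0.200), a hint from the data and not from the labels. There the block changed no call of the 3 piRNAs. The piRNAs and lists were chosen with earlier results of these data known. Other piRNAs are named as the 3 most alike, the nearest kept on either side, and the first 2 others in each direction under the choice rule. Intervals cover counting error or library spread as stated. A search for motifs before the piRNA starts was not run.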

Additional observations from a re-analysis of the deposited data

Results flagged for a closer look

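The log2 fold change of 21ur-1258 in snpc-1.2 at 72 h less that at 48 h was 3.01 (SE 0.37), with 3.24 in adults and 0.22 in larvae, and it used the adult wild-type libraries that entered the choice, so it is no independent test. The same holds for 21ur-5030 in snpc-1.2 (edgeR adjusted p 0.0439 for the difference between ages), with 0 counts in the mutant at 72 h and 7 at 48 h. Over all piRNAs the snpc-1.2 difference was called for 40.5%, so a call does not set these apart. The effect of losing both snpc genes on 21ur-1258 differed by 2.97 (edgeR adjusted p 0.00013, SE 0.57), with 0.19 in adults and -2.78 in larvae, on 26 and 21 mutant counts in all. That difference held its call under TMM scaling (2.33) and in every fit with 1 library left out. With 3 libraries in each group, no test for an outlying sample was made.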

How the results depend on the processing

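Of 330 values with 1 library left out, 297 kept their direction and their side of the threshold, 11 lost a call and 22 changed sign. Of 240 under the other settings these were 228, 3 and 7, with 2 that gained a call. Both tallies hold values of snpc-1.2 adults and of the snpc-1.2 difference between ages. Those rest on wild-type libraries that entered the choice, and their calls are no independent test. For snpc-1.3 larvae the leave-one-out ranges were -4.61 to -4.35 (21ur-1258), 1.75 to 2.24 (21ur-4766) and 1.89 to 2.52 (21ur-5030). In snpc-1.2 adults 21ur-1258 ranged from 2.96 to 3.65. The cause of the changes below was not tested.

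With TMM scaling 21ur-1258 had -0.77 in snpc-1.2 larvae, -1.83 in adults lacking both genes, -1.59 in prg-1 adults and -0.31 between the ages of snpc-1.2. DESeq2 gave -0.54, 0.74 and -0.53 for the last 3, and -1.46 for 21ur-4766 in snpc-1.2 larvae, not called. limma on the deposited log2 values gave -0.39 (both genes) and -0.82 (prg-1). For 21ur-5030 set C alone gave 0.89 with age, and no filter gave an adjusted p of 0.075 for the snpc-1.2 difference between ages, which is no independent test.

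Leaving out 1 library gave -2.01 to -1.41 for 21ur-4766 in snpc-1.2 larvae. It gave -0.64 to 0.65 for 21ur-1258 in adults lacking both genes, and -0.47 to 0.26 in prg-1 adults. The edgeR adjusted p of 21ur-5030 ran from 0.0115 to 0.0765 in adults lacking both genes, and from 0.0169 to 0.147 for the snpc-1.2 difference. The latter is no independent test. Uncalled values crossed 0 in mut-16 larvae (21ur-5030, -0.20 to 0.43), in mut-16 adults (21ur-1258, -0.0028 to 0.20, and 21ur-4766, -0.30 to 0.035) and in hrde-1 larvae (21ur-1258, -0.040 to 0.19, and 21ur-5030, -0.50 to 0.083). They did so in hrde-1 adults (21ur-1258, -0.22 to 0.070, 21ur-4766, -0.32 to 0.10, and 21ur-5030, -0.34 to 0.018) and for the hrde-1 difference between ages (21ur-1258, -0.28 to 0.0043, and 21ur-5030, -0.26 to 0.33).

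The limma counts are over the 13211 piRNAs of the deposited log2 table, so features, values and tool differ together. Without both genes there were 2795 in larvae (4951 with TMM, 10043 with limma) and 2863 in adults (11066 with limma), and 633 for the difference between ages (297 with TMM, 404 to 658 leaving out 1 library). For prg-1 there were 862 in larvae (2416 with TMM, 10739 with limma, 499 to 830 leaving out 1), 1032 in adults (2123 with TMM, 2339 with DESeq2, 11476 with limma) and 17 for the difference (2 with TMM, 34 with DESeq2, 34 in set B alone, 2 to 22 leaving out 1). For mut-16, 332 in larvae became 77 to 378 and 625 in adults 387 to 672 leaving out 1. For hrde-1, 70 in larvae became 120 in set B alone, 34 with limma and 25 to 47 leaving out 1. With the replicate block the 113 of hrde-1 adults became 177, against 61 with DESeq2, 183 in set B alone, 59 with limma and 30 to 87 leaving out 1. Age in wild type gave 6161 and 3700 in set C alone, and age in snpc-1.2 gave 936, 1934 with TMM and 2233 with DESeq2. The block changed no call of the 3 piRNAs. In 10 of 12 comparisons every sample correlated best with its own number, a hint from the data and not the design. The piRNAs most like each of the 3 ranked between 6 and 679 of 8511 by Spearman's rho. With a pseudocount of 10 those of 21ur-4766 ranked 7, 170 and 85, those of 21ur-5030 ranked 3, 28 and 27, and those of 21ur-1258 ranked 1, 8 and 3. Depth limits 21ur-4766 and 21ur-5030 in prg-1 and without both genes, where 3 counts exceed most wild-type levels.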
